A study of Macaca mulatta with 8 samples.

Results

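Chaperone genes were described in granulosa cells of the rhesus macaque before and after an ovulatory stimulus. They were chosen by a rule on names, with earlier results of these data known. The rule takes genes whose single platform symbol begins HSPA, HSPB, HSPD, HSPE, HSPH, HSP90, DNAJ or PDIA, or CCT followed by a number. This gave 62 genes, read by 139 probe sets, of 14132 genes with a symbol on the array. Where a gene had several probe sets, the brightest over the 8 arrays stood for it. All 62 were tested, since no filter on low signal was applied. HSPA1A, HSPA1B, HSPA5, HSPD1, HSPE1, HSPB1, DNAJB9, DNAJC3 and DNAJC15 had no probe set with their symbol alone and are not analysed here. The letters also admit HSPBP1 and HSPBAP1, which are partners of chaperones rather than chaperones.

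The group before hCG (PM-GC) holds 4 samples from follicles stimulated with follicle-stimulating hormone (FSH) only. The group after hCG (VVM-GC) holds 4 samples from follicles that received FSH and then human chorionic gonadotropin (hCG), which stands in for the luteinizing hormone surge, so that all 8 come from FSH-stimulated ovaries. Each sample was hybridised to its own Affymetrix array after linear amplification of its RNA. Genotype, age, the time between hCG and collection, and the animals behind the replicates are not stated, so p-values measure the spread between these samples, which may be partly technical. The series design calls the cells mural granulosa cells, which line the follicle wall, whereas the sample labels name the cumulus-oocyte complex as well.

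Chaperones bind unfolded proteins and help them fold, move or be degraded. HSP70 proteins do this in cycles of ATP hydrolysis that are started by J proteins (the DNAJ genes, in classes A, B and C) and ended by nucleotide exchange factors such as the HSP110 proteins. HSP90 takes over partly folded clients, among them the steroid hormone receptors, while the ring-shaped cytosolic chaperonin folds actin and tubulin. Small heat shock proteins hold unfolded proteins without using ATP, and protein disulfide isomerases form and rearrange disulfide bonds of secreted proteins in the endoplasmic reticulum. Granulosa cells secrete inhibins and matrix proteins before and around ovulation and respond to steroids through receptors that HSP90 serves.

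Values are log2 intensities, and array medians lay between 5.44 and 5.54. Signals of different probe sets are not compared with each other, since each binds with its own strength. Arrays before hCG correlated with each other at 0.984 to 0.988 (Pearson), arrays after hCG at 0.974 to 0.984, and arrays of different groups at 0.935 to 0.956. The log2 signal at the 3' end of ACTB exceeded that at its 5' end, which falls behind in shortened RNA, by 4.75 ± 0.0523 (SD, n = 4) in the first group and 4.77 ± 0.312 in the second (two-sided exact permutation test, p = 0.914). For GAPDH this excess was 2.74 ± 0.0753 in the first group and 2.64 ± 0.097 in the second (two-sided exact permutation test, p = 0.2). Of 11 granulosa markers, 8 were measured, and the means of all 8 lay above the array medians in both groups. INHBB came nearest to the array medians, at 5.31 to 6.31 after hCG. All 8 fell, and their summed log2 level went from 82.4 to 85.8 before hCG down to 71.1 to 73.2 after it. Markers of other cells moved less evenly: 1 of 5 leukocyte markers fell (CSF1R), with sums of 35.1 to 37.2 before and 28.9 to 37.7 after hCG; 2 of 3 erythrocyte markers fell, with sums of 26.1 to 27.8 and 20.2 to 25.7; and 1 of 2 theca markers fell (CYP17A1, below the array medians), with sums of 10.3 to 11.8 and 10.1 to 11.7. None of 5 oocyte, 5 endothelial or 4 stromal markers passed. Over all genes 12.5% were lower and 11.3% higher. Endothelial markers differed by -0.27 to 1.26 and stromal markers by -0.22 to 0.92. The highest were VWF, at 5.88 to 9.10 after hCG, and DCN, at 7.83 to 9.63. The part of these cells in the results below was not tested, and in such bulk samples fewer cells of a type and less RNA per cell cannot be told apart.

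After hCG, 5 of the 62 chaperone genes rose and 9 fell at an adjusted p of at most 0.05 (limma, Benjamini-Hochberg over 14132 genes). The 14 make up 22.6% of the 62, while 23.8% of all genes passed, 11.3% higher and 12.5% lower, so the chaperone genes changed about as often as genes at large. The median log2 difference, after minus before hCG, was -0.15 over the chaperone genes and -0.09 over all genes. Their order turned when all probe sets of a gene were averaged, with -0.05 over the chaperone genes and -0.08 over all genes. The groups did not overlap for 19 of the 62, where 27.2% of all genes had no overlap; the 14 genes past the threshold are among the 19. Of the 62 genes 5 passed with a change of at least 2-fold (8.06%, against 10.5% of all genes): DNAJC1, DNAJC25 and DNAJA4 rose, and HSPB6 and DNAJB1 fell. The count of genes that fell depended on scaling: with a further quantile normalization 16 fell and 6 rose, the added ones being CCT2, CCT4, DNAJC13, DNAJC5B, DNAJC8, DNAJC9 and PDIA2 (lower) and DNAJB4 (higher). The count of genes that rose was 3 without array 1 or without array 2 before hCG.

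**Figure D1:**
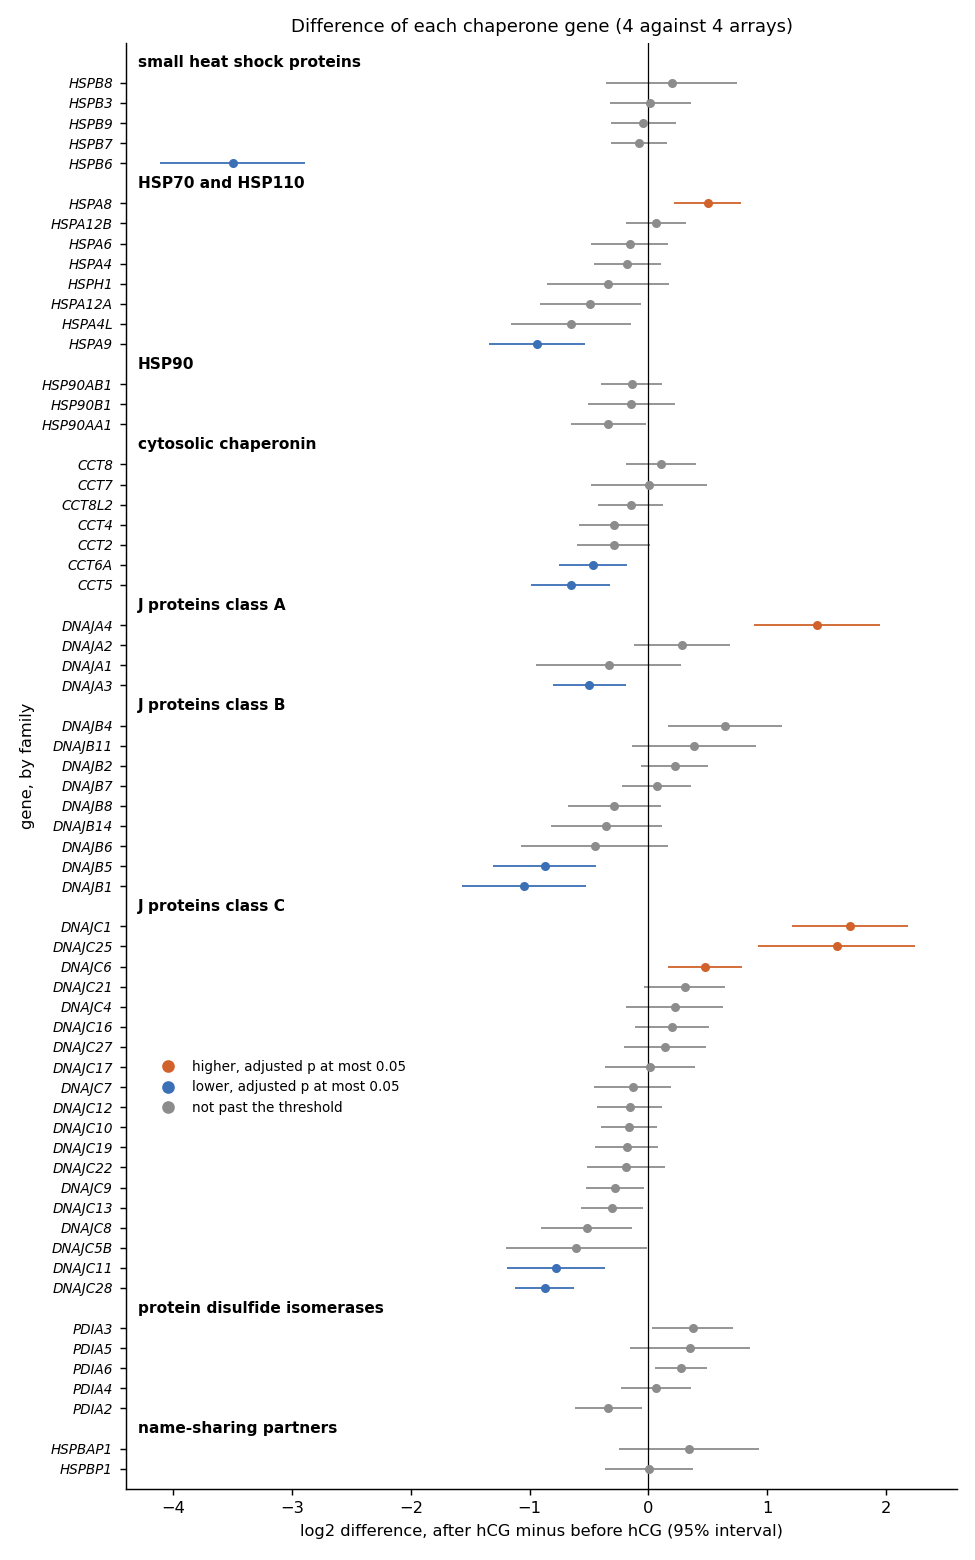
Log2 difference, after hCG minus before hCG, of each of the 62 chaperone genes, grouped by family; points are differences between 4 and 4 arrays, bars are 95% intervals that are not adjusted for the number of genes, and colour marks genes that passed. HSPB6 stands at -3.50 and DNAJC1 at 1.69, and most other genes lie within 1 of 0.

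Among the small heat shock proteins HSPB6, also known as HSP20, was far lower after hCG while the other 4 were not called. HSPB6 read 10.39, 9.61, 9.41 and 10.50 on the arrays before hCG and 5.99, 6.53, 6.60 and 6.78 after it. Every array before hCG was thus well above every array after it, an 11.3-fold fall (log2 difference -3.50, SE 0.27, adjusted p = 2.76e-05). Its other probe set also fell, by 0.88, and the average of both fell by 2.19. HSPB8, which works with the co-chaperone BAG3 in disposing of damaged proteins, read 8.05, 8.18, 9.09 and 8.31 before and 8.53, 8.17, 8.72 and 8.99 after hCG. The groups overlapped, and the difference of 0.19 had a 95% interval of -0.36 to 0.75. HSPB3, HSPB7 and HSPB9, known mainly from muscle and testis, differed by -0.08 to 0.02, with intervals that stayed within -0.32 and 0.36. HSPB3 and HSPB9 lay below the array median in both groups.

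The HSP70 and HSP110 family held 1 gene that rose and 1 that fell among 8, beside 11.3% of all genes higher and 12.5% lower. HSPA8, the constitutive HSP70 of the cytosol that also strips clathrin from vesicles, read 12.20, 12.16, 12.33 and 12.35 before and 12.75, 12.53, 12.72 and 13.03 after hCG. The groups did not overlap, and its rise was 1.41-fold (log2 difference 0.50, SE 0.13, adjusted p = 0.0182). A dimmer probe set labelled HSPA8 went the other way, with -1.02, while another followed with 0.91, and the average of the 3 probe sets differed by 0.13 (adjusted p = 0.524). Leaving out array 1 or array 2 before hCG also ended its call (adjusted p = 0.0514 and 0.0508). HSPA9, or mortalin, the HSP70 that pulls proteins into the mitochondrial matrix and folds them there, read 11.27, 11.71, 11.67 and 11.58 before and 10.93, 10.87, 10.24 and 10.44 after hCG. All 4 arrays after hCG lay below all 4 before it, and the gene fell by 0.94 (SE 0.18, adjusted p = 0.00451).

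The other members of this family stayed below the threshold. HSPH1, the stress-inducible HSP110, read 9.76 on array 1 before hCG, where the other arrays of that group read 10.56, 10.84 and 10.78, and 10.21, 10.22, 10.28 and 9.89 after hCG. With all arrays it differed by -0.34 (adjusted p = 0.325); without array 1 before hCG it fell by 0.58 (adjusted p = 0.0217). HSPA4, an HSP110 relative, differed by -0.18 (adjusted p = 0.343), although 1 of its 6 probe sets fell, by 0.91. With the probe sets of each gene averaged HSPA4 was called lower, and 2 genes of this family fell and none rose. HSPA4L did not overlap between the groups but was dim in both and missed the threshold at -0.65 (adjusted p = 0.0632; past it without array 3 after hCG, adjusted p = 0.0449). HSPA12A differed by -0.49 (adjusted p = 0.0934; past the threshold without array 1 after hCG, adjusted p = 0.033), HSPA12B by 0.06 and HSPA6 by -0.16.

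None of the 3 HSP90 genes was called. HSP90AB1, the constitutive cytosolic HSP90, read 12.96, 12.63, 12.76 and 12.74 before and 12.49, 12.59, 12.75 and 12.71 after hCG. The groups overlapped, and the 95% interval of its difference was -0.40 to 0.12. HSP90B1, or GRP94, the HSP90 of the endoplasmic reticulum, differed by -0.15 (interval -0.51 to 0.22). HSP90AA1, the stress-inducible form, was read by a single probe set close to the array median, at 5.92 ± 0.17 before and 5.58 ± 0.21 after hCG (SD, n = 4, adjusted p = 0.114). No detection calls came with the values, so how well that probe set reads the transcript is unknown.

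Of the 7 chaperonin genes 2 fell and none rose, beside 12.5% of all genes lower; 1 fell in the fits that lost CCT6A, named with it. CCT5 read 10.70, 10.68, 11.10 and 11.18 before and 10.24, 10.17, 10.45 and 10.18 after hCG, with no overlap and a fall of 0.66 (SE 0.15, adjusted p = 0.00985). CCT6A fell by 0.47 (SE 0.13, adjusted p = 0.0239), from 10.28 ± 0.16 to 9.81 ± 0.16 (SD, n = 4). Both encode subunits of the same ring. The call of CCT6A was less secure: its second probe set stood at 0.65 (not past the threshold), the average of both was 0.09, and the call was lost without any 1 of array 2 or 3 before hCG or array 1 or 2 after hCG (adjusted p = 0.0507 to 0.0623). The remaining subunits were closer to 0. CCT2 and CCT4 each differed by -0.29, CCT7 by 0.01 and CCT8 by 0.11, and none passed. TCP1, a subunit of the same ring whose name the rule leaves out, differed by -0.24 (adjusted p = 0.334). The 10 probe sets labelled CCT2 split evenly in sign, from -0.43 to 0.92, and none was called. CCT8L2, a relative of these subunits, lay below the array median in both groups and differed by -0.15.

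Class A and B J proteins are the general partners of HSP70. Of the 4 class A genes 1 rose and 1 fell, and of the 9 class B genes none rose and 2 fell, beside 11.3% of all genes higher and 12.5% lower. DNAJA4 read 6.38, 7.03, 6.55 and 6.95 before and 7.95, 7.81, 8.02 and 8.81 after hCG. All arrays after hCG were higher, a 2.68-fold increase (log2 difference 1.42, SE 0.24, adjusted p = 0.0020); its other 2 probe sets, whose means lay below the array medians, were not called, at 0.12 and 0.45, and the average of the 3 rose by 0.67. DNAJB1, the main stress-inducible HSP40, read 12.18, 11.51, 12.19 and 11.68 before and 11.41, 10.87, 10.66 and 10.44 after hCG. Each array after hCG lay below each array before it, array 1 after hCG being the closest to the first group. DNAJB1 fell 2.06-fold (log2 difference -1.04, SE 0.23, adjusted p = 0.00967), and its second probe set fell by 1.60.

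DNAJB5, a relative of DNAJB1, fell by 0.87 (SE 0.19, adjusted p = 0.00944), from 8.29 ± 0.36 to 7.42 ± 0.23 (SD, n = 4); averaged with its second probe set it stood at -0.58 (adjusted p = 0.055). DNAJA3, the J partner of HSPA9 in mitochondria, fell by 0.50 (adjusted p = 0.0254), a call lost in 6 of the 8 fits that leave out an array. DNAJA1, a cytosolic partner of HSPA8, varied widely within both groups, from 8.90 to 9.70 before and from 8.53 to 9.73 after hCG, and differed by -0.34 (adjusted p = 0.417), while 1 of its 3 probe sets rose, by 0.68. DNAJB4 did not overlap between the groups, yet missed the threshold at 0.65 (adjusted p = 0.0552). It passed with a further quantile normalization, with array medians subtracted and without dim probe sets. A trended robust variance and the replicate block also brought it past the threshold. DNAJB11, a co-chaperone of the endoplasmic reticulum, read 9.35 to 10.06 before and 9.52 to 10.62 after hCG (difference 0.38, adjusted p = 0.278). DNAJA2, DNAJB2, DNAJB6, DNAJB7, DNAJB8 and DNAJB14 differed by -0.45 to 0.28 and did not pass. Of the 5 probe sets of DNAJB6 1 fell, and DNAJB14 was called lower when its probe sets were averaged.

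Class C is the most varied class, whose members bring HSP70 to particular places and tasks. Of its 19 genes 3 rose and 2 fell, which is 26.3% past the threshold, beside 23.8% of all genes. DNAJC1, a J protein of the endoplasmic reticulum membrane that faces HSP70 in the lumen and the ribosome outside, showed the largest increase of all 62 genes. It read 6.95, 7.27, 6.77 and 7.25 before and 8.97, 9.23, 8.57 and 8.23 after hCG, a 3.23-fold rise with no overlap (log2 difference 1.69, SE 0.22, adjusted p = 0.000465), and its second probe set rose by 0.95. DNAJC25, a membrane J protein, read 6.33, 6.87, 6.63 and 6.16 before and 7.59, 7.59, 8.91 and 8.23 after hCG. It rose by 1.58 (SE 0.29, adjusted p = 0.00371), and arrays 3 and 4 after hCG were the highest. DNAJC6, the auxilin that recruits HSP70 to clathrin coats, rose by 0.48 (adjusted p = 0.0343), but lay below the array median, at 3.73 ± 0.21 before and 4.21 ± 0.17 after hCG (SD, n = 4). With 32 added to each intensity its difference was 0.16 (adjusted p = 0.0822), and its call was lost in 5 of the 8 fits that leave out an array.

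DNAJC11, a mitochondrial outer membrane protein linked to the organisation of cristae, fell by 0.78. It read 9.56, 9.22, 9.37 and 9.53 before and 8.33, 8.82, 9.08 and 8.33 after hCG (SE 0.18, adjusted p = 0.0128); another probe set fell by 0.83 and the remaining one stood at -0.25. DNAJC28 fell by 0.87 (SE 0.11, adjusted p = 0.00042), from 4.10 ± 0.06 to 3.22 ± 0.15 (SD, n = 4), below the array median in both groups; with 32 added to each intensity it fell by 0.25. The remaining 14 class C genes lay between -0.61 and 0.30. Among them DNAJC10, a disulfide reductase of the endoplasmic reticulum, read 12.39 to 12.66 before and 12.28 to 12.41 after hCG (difference -0.16, adjusted p = 0.301). DNAJC19, a regulator of protein import at the mitochondrial inner membrane, differed by -0.18 (adjusted p = 0.294). DNAJC8, of the spliceosome, stood nearest to the threshold at -0.52 (adjusted p = 0.053; 0.0492 without array 4 after hCG). DNAJC9, a histone chaperone, did not overlap between the groups and differed by -0.28 (adjusted p = 0.0906). Without array 4 after hCG, DNAJC21 and DNAJC4 rose and DNAJC5B fell (adjusted p = 0.0249, 0.0359 and 0.0236). DNAJC7, DNAJC12, DNAJC13, DNAJC16, DNAJC17, DNAJC22 and DNAJC27 make up the rest and were not called in any fit that leaves out an array.

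**Figure D2:**
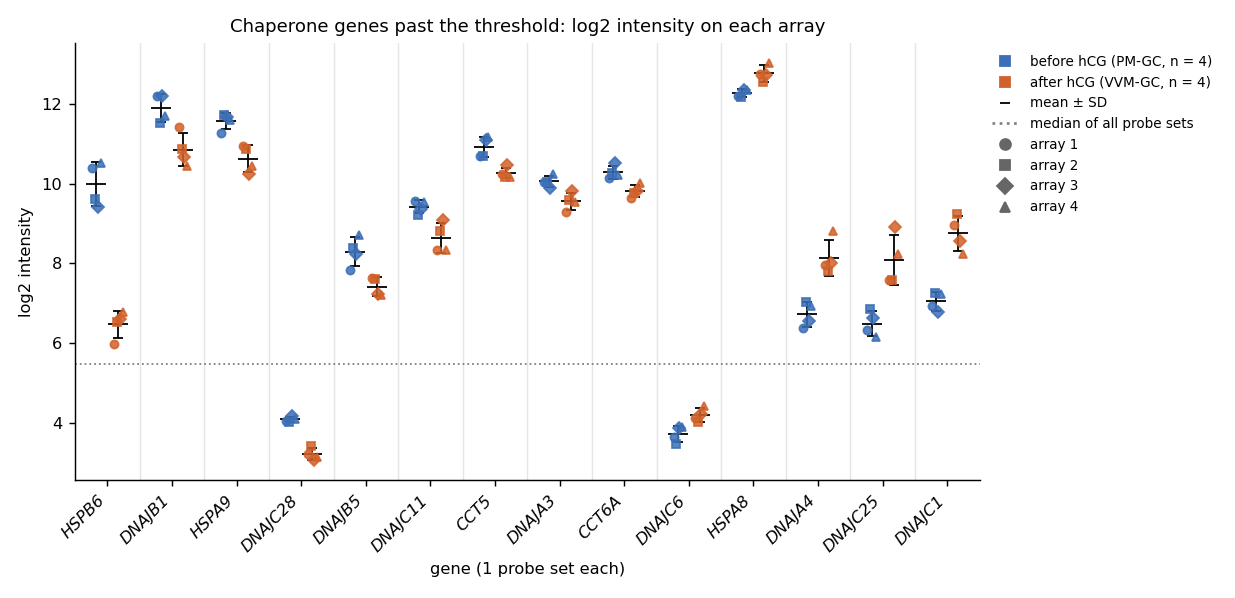
Log2 intensity of the 14 chaperone genes past the threshold on each of the 8 arrays, ordered by their difference; symbols mark the array number, horizontal ticks with bars the mean ± SD (n = 4), and the dotted line the median of all probe sets. In each of the 14 genes the arrays before and after hCG do not overlap, and DNAJC28 and DNAJC6 lie below the dotted line.

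The 5 protein disulfide isomerases gave no call by their brightest probe sets, with differences of -0.34 to 0.37. PDIA6 read 12.54, 12.62, 12.61 and 12.57 before and 12.98, 12.76, 12.81 and 12.87 after hCG. All arrays after hCG were higher, but the difference of 0.27 missed the threshold (adjusted p = 0.0728). Its other 2 probe sets rose, by 0.55 and 0.88, and the average of the 3 rose by 0.57 (adjusted p = 0.00688). PDIA3, which folds glycoproteins together with calnexin and calreticulin, differed by 0.37 (SE 0.15, adjusted p = 0.111), with 11.27 to 11.86 before and 11.76 to 12.15 after hCG. PDIA4 was at 11.70 ± 0.08 before and 11.76 ± 0.23 after hCG (SD, n = 4), and PDIA5 differed by 0.35 (adjusted p = 0.3). PDIA2, known from the pancreas, stood at -0.34 (adjusted p = 0.0859; 0.0414 without array 4 after hCG). Of the partners, HSPBP1, a nucleotide exchange factor of HSP70, differed by 0.00 (adjusted p = 0.992) and HSPBAP1 by 0.34 (adjusted p = 0.39).

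By compartment, 4 of the 6 measured chaperone genes listed as mitochondrial fell and none rose, against 12.5% of all genes lower. The 4 are HSPA9, DNAJA3, DNAJC11 and DNAJC28, and the median of the 6 was -0.64, beside -0.09 over all genes; with 32 added to each intensity these were -0.36 and -0.05. DNAJC19 and DNAJC4 (0.22, adjusted p = 0.424) did not pass. In the fits that leave out an array 3 or 4 of the 6 fell, DNAJA3 being the one lost, and DNAJC4 rose without array 4 after hCG. Among 13 other genes of mitochondrial protein import and quality control, 3 rose and 3 fell, beside 23.8% of all genes past the threshold in either direction. Their median was -0.19, but -0.03 without array 2 before hCG, -0.09 without array 2 after hCG, -0.05 without array 3 after hCG and -0.12 with 32 added to each intensity. TRAP1, the HSP90 of mitochondria, fell 2.16-fold, from 8.36 ± 0.19 to 7.24 ± 0.41 (SD, n = 4, adjusted p = 0.0031). PAM16, which regulates the import motor that HSPA9 drives, fell by 1.05 (adjusted p = 0.00915), and PMPCA, a subunit of the protease that removes import signals, by 0.45. The other subunit of that protease, PMPCB, rose by 0.60 (adjusted p = 0.00646). AFG3L2, a protease of the inner membrane, rose by 1.12 (SE 0.12, adjusted p = 0.000196), and PITRM1, which degrades cleaved import signals, by 0.40. The calls of PMPCA (adjusted p = 0.0502 without array 3 before hCG and 0.0552 without array 2 after hCG) and PITRM1 (adjusted p = 0.0504 without array 4 after hCG) were narrow.

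Of the 12 chaperone genes listed for the endoplasmic reticulum 2 rose, DNAJC1 and DNAJC25, and none fell, against 11.3% of all genes higher (median of the 12, 0.24, or 0.15 without array 4 before hCG). Without array 4 after hCG 1 of them, PDIA2, fell. With all probe sets of a gene averaged 3 rose, PDIA6 being added, and 1 fell, DNAJB14. Of 36 other genes of folding and the unfolded protein response in this compartment 11 rose and 2 fell, which is 36.1% past the threshold, beside 23.8% of all genes. Their median was 0.28, but 0.18 without array 4 before hCG and 0.16 with all probe sets of a gene averaged. SELENOS, a membrane protein of the pathway that exports misfolded proteins for degradation, read 9.64, 10.17, 9.93 and 10.29 before and 11.09, 11.25, 11.32 and 11.21 after hCG. It rose by 1.21 with no overlap (SE 0.15, adjusted p = 0.000375). SYVN1, the ubiquitin ligase of that pathway, rose by 0.96 (adjusted p = 0.000305), and EDEM1, which selects glycoproteins for it, by 0.996 (adjusted p = 0.00442; averaged over both probe sets it stood at 0.53, adjusted p = 0.0652). P4HB, the founding protein disulfide isomerase, whose name the PDIA rule leaves out, was picked after its values were seen; it rose by 0.56 (adjusted p = 0.00333), and both of its probe sets rose. DDIT3, a stress-induced transcription factor, fell by 1.39 and SDF2, a partner of J proteins in this compartment, by 1.27 (adjusted p = 0.0144 and 0.00302). Of the 36 genes 23 did not pass, among them XBP1, ATF6, ATF6B, ERN1, EIF2AK3 and ATF4, at -0.17 to 0.31.

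**Figure D3:**
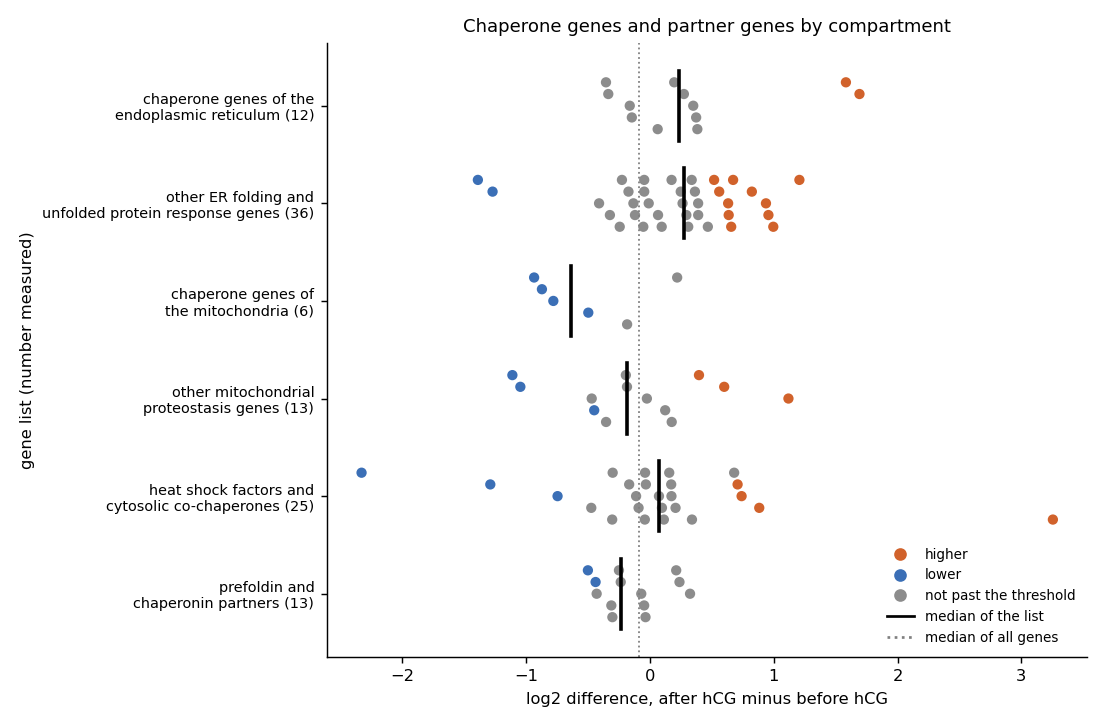
Log2 difference, after hCG minus before hCG, of chaperone genes and of other genes of the same pathways; each point is a gene, coloured where it passed, black bars are the medians of the lists and the dotted line is the median of all genes. The 6 mitochondrial chaperone genes have their median at -0.64, and the 12 of the endoplasmic reticulum at 0.24.

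Heat shock factors, which control transcription of chaperones, and the cytosolic co-chaperones gave 4 genes higher and 3 lower among 25 (28.0%, beside 23.8% of all genes). The median was near 0 with no settled sign: 0.07 as fitted, 0.03 without array 4 before hCG, 0.02 without array 4 after hCG, 0.05 without array 2 after hCG, 0.12 without array 2 before hCG, -0.01 with a further quantile normalization and -0.04 without dim probe sets. HSF1, the main stress sensor, read 8.09 to 8.67 before and 7.98 to 9.02 after hCG and differed by 0.10 (adjusted p = 0.797). HSF4 fell 5.03-fold. It read 8.44, 8.85, 8.41 and 9.17 before and 6.32, 6.61, 6.99 and 5.62 after hCG (log2 difference -2.33, SE 0.28, adjusted p = 0.000349), but its second probe set stood at -0.20 and was not called, and the average of both fell by 1.27. HSF2 fell by 0.75 (SE 0.15, adjusted p = 0.00484).

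The immunophilins that share HSP90 in steroid receptor complexes went opposite ways. FKBP5, which keeps the glucocorticoid receptor in a state of low affinity, read 5.68, 5.62, 5.99 and 5.39 before and 9.32, 8.56, 8.11 and 9.72 after hCG. FKBP4, which favours the active receptor, read 9.14, 9.44, 9.73 and 9.53 before and 7.86, 8.34, 8.75 and 7.74 after hCG. Neither gene overlapped between the groups: FKBP5 rose by 3.26 (adjusted p = 0.000102) and FKBP4 fell by 1.29 (adjusted p = 0.00277), with 2 of its 3 probe sets lower and a difference of -0.66 for the average of the 3. AHSA1, which stimulates the ATPase of HSP90, rose by 0.74 (SE 0.14, adjusted p = 0.00359), and BAG3, a partner of HSP70 and HSPB8, by 0.88 with some overlap (adjusted p = 0.0171), a call that ended when array 3 or array 4 of the first group was left out (0.0512 and 0.0513). Without either of those arrays 2 genes of this list rose in place of 4. Of 13 genes for prefoldin, tubulin folding, other partners of the chaperonin and its subunit TCP1, none rose and 2 fell, beside 12.5% of all genes lower. The 2 were URI1 and TBCD, which fell by 0.50 and 0.44 (adjusted p = 0.0434 and 0.036). Both calls were lost with array medians subtracted (adjusted p = 0.0724 and 0.0618) and with probe sets averaged (adjusted p = 0.189 and 0.14), and 0 or 1 gene of this list fell in each fit that leaves out an array.

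The list of stress-inducible cytosolic chaperones also holds HSPA8, the constitutive HSP70 described above. Of its 8 measured genes 1 rose (HSPA8), 1 fell (DNAJB1) and 6 did not pass, which is 25% past the threshold, beside 23.8% of all genes. Their median was -0.25. None rose without array 1 or array 2 before hCG, and 2 fell without array 1. The median was -0.16 without array 3 before hCG, without array 3 after hCG or with 32 added to each intensity, and -0.01 with all probe sets of a gene averaged. Array 1 before hCG had the lowest value of its group for 3 of the 8, HSPH1, DNAJA1 and HSPB8, and not for HSPA6, HSPA8, HSP90AA1, DNAJB1 and DNAJB4. Over all 62 chaperone genes, array 1 was the lowest of the 4 before hCG in 24 (38.7%) and the highest in 5 (8.06%), where over all genes it was the lowest in 22.7% and the highest in 22.3%. What sets this array apart was not tested. Immediate early genes, which respond both to hormones and to handling of tissue, gave 2 higher and 2 lower among 11 (36.4%, beside 23.8% of all genes). FOSL2 and NR4A2 rose by 1.30 and 0.67 (adjusted p = 0.00255 and 0.0171), and NR4A1 and FOS fell by 0.82 and 1.07 (adjusted p = 0.0208 and 0.0434). FOS overlapped between the groups, and its call was lost with adjustment over all probe sets. None of the 11 fell without array 1 or 2 before hCG, and 1 fell without array 3 or 4 before hCG or array 1 or 2 after hCG. The summed level of the 11 ran from 112.7 to 119.6 before and from 109.0 to 117.5 after hCG. The part of handling in the values of the chaperone genes was not tested.

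**Figure D4:**
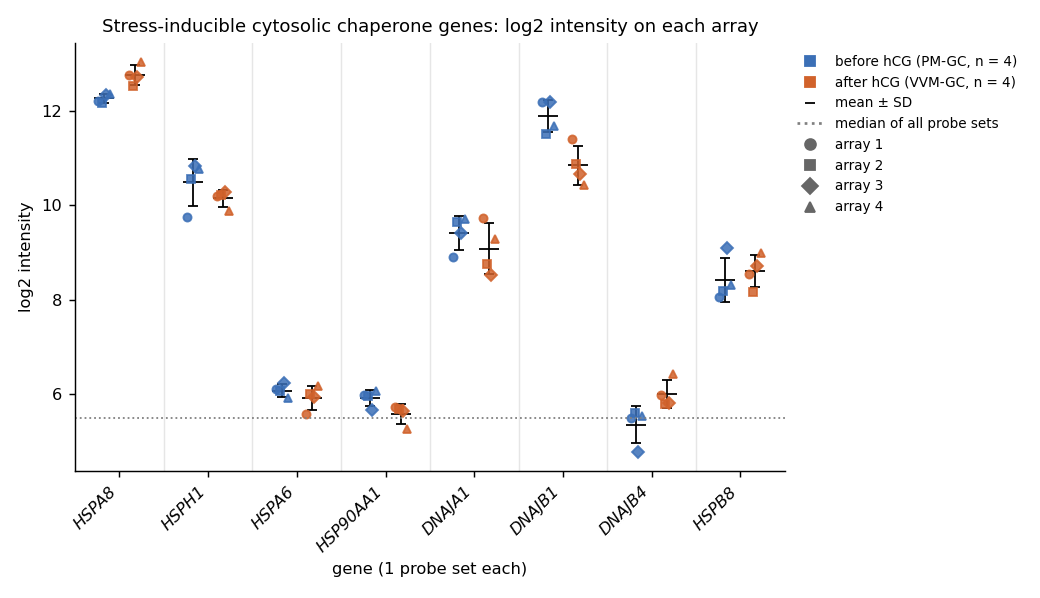
Log2 intensity on each array of the 8 measured genes listed as stress-inducible cytosolic chaperones, among which HSPA8 is constitutive. Symbols mark the array number, ticks with bars the mean ± SD (n = 4), and the dotted line the median of all probe sets. HSPA8 lies higher and DNAJB1 lower after hCG, while array 1 before hCG (circle) lies apart for HSPH1 at 9.76.

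Several probe sets were available for 39 of the 62 genes. In 24 of the 39 all probe sets of a gene had the same sign, and in 1, HSPA8, probe sets were called in both directions. Over the 139 probe sets 10 were higher and 16 lower with adjustment over all 52707 probe sets, which is 18.7%, where 14.1% of all probe sets passed. These shares are not alike, since all 139 carry a gene symbol while 27390 of the 52707 carry none. With the same adjustment and the brightest probe set of each gene, the same 14 chaperone genes passed (22.6%), beside 21.5% of all genes. For 4 genes, HSPA4, DNAJA1, DNAJB6 and PDIA6, a probe set other than the brightest was called while the brightest was not. Of the 9 genes with several probe sets that were called by the brightest one, 7 had every probe set on the same side of 0, the exceptions being HSPA8 and CCT6A. For 23 genes, among them DNAJC25, CCT5, DNAJA3, DNAJC28 and DNAJC6, a single probe set was all that could be read.

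**Figure D5:**
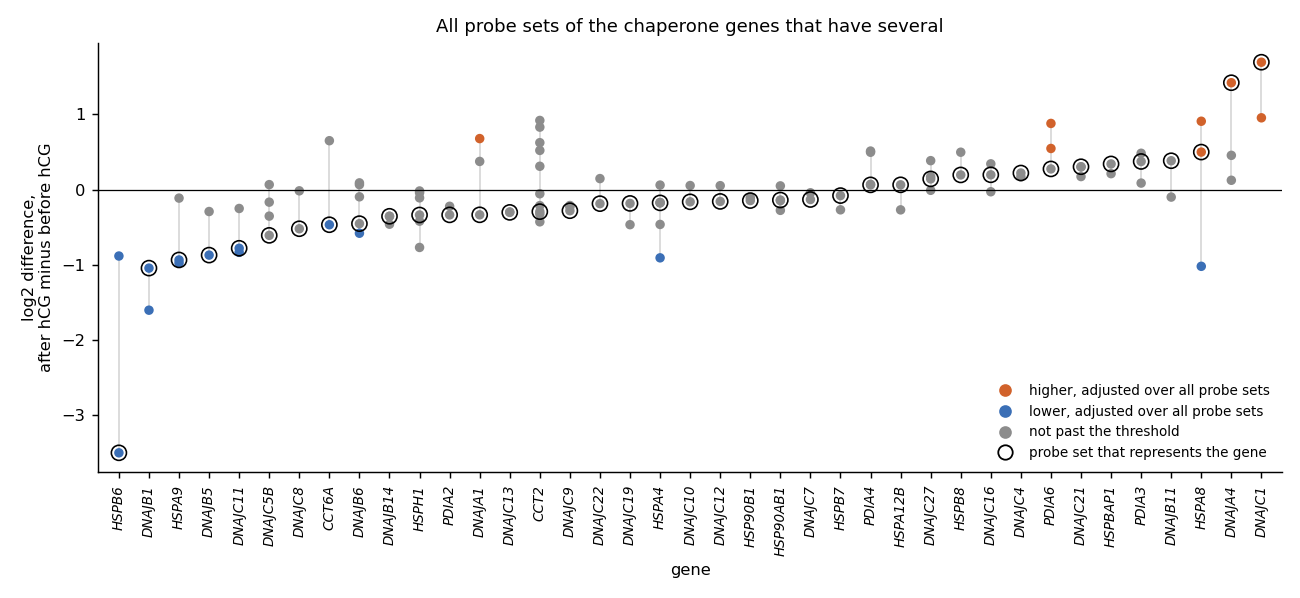
Log2 difference, after hCG minus before hCG, of every probe set of the 39 chaperone genes with more than 1; colour marks probe sets past the threshold with adjustment over all probe sets, and the open circle the brightest, which represents the gene. The 2 probe sets of HSPB6 lie at -3.50 and -0.88, and those of HSPA8 between -1.02 and 0.91.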

How the data were processed

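The submitters' processing notes name Affymetrix Expression Console and RMA, a summary over the probes of each probe set, as what produced the authors' deposited intensity values, without versions. The values are linear (array medians 43.5 to 46.5), so log2 was taken and nothing else changed. Of 52865 rows, 158 control rows were left out. Of the 52707 probe sets left, 24956 had 1 gene symbol in the platform annotation, 361 several and 27390 none; 24616 of the 24956 matched a gene ID of the reference table. The 2 probe sets that list a chaperone symbol among several were not named. Groups were compared with limma 3.58.1 (lmFit, eBayes) in R 4.3.3 over 14132 genes, and the procedure was tested on simulated data. The values carry no detection calls, and the number of arrays, 4 per group, limits the precision.

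Genes named are all 14 called chaperone genes, under a limit of 12 in each direction, 32 index genes (23 measured) and partner genes. From each partner list up to 3 of the largest calls in each direction were taken. Others were named after their values were seen. Members and lists were chosen with earlier results of these data known. No sequence or genome table was used here, so no sequence, promoter or position is given. Alternatives were a further quantile normalization, median centring, 32 added to each intensity, a filter on dim probe sets, averaged probe sets, all probe sets, updated symbols, a trended robust variance, a replicate block, each array left out, and the chaperones without HSPBP1 and HSPBAP1.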

Additional observations from a re-analysis of the deposited data

How the results depend on the processing

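With a further quantile normalization 16 chaperone genes fell in place of 9; the cause was not tested. In the fits that leave out 1 array, 3 to 6 chaperone genes rose, 7 to 11 fell, and their median difference ran from -0.16 to -0.12. Of the 14 genes called, 8 passed in all 17 refits: HSPB6, DNAJB1, HSPA9, DNAJC11, CCT5, DNAJC1, DNAJC25 and DNAJA4; DNAJC28 passed in all 16 that held it. DNAJB5 passed in 16, HSPA8 in 14, CCT6A in 12 and DNAJA3 in 10 of 17, and DNAJC6 in 10 of 16. The refit by updated symbols is counted among these but is no check of the chaperone calls, since no chaperone probe set changed its symbol. CCT6A changed sign when its probe sets were averaged (log2 difference 0.0906, adjusted p = 0.65), since its second probe set lies above 0. With the replicate block 6 chaperone genes rose and 8 fell, with DNAJB4 gained and DNAJA3 lost (adjusted p = 0.0605), and 21.7% of all genes passed in place of 23.8%. The samples share only a number: deviations of same-numbered arrays correlated at -0.03, 0.01, 0.05 and 0.165, and only the arrays numbered 2 correlated best with each other. Of all calls, 47.5% were higher; this share was 40.8% with a further quantile normalization and 52.4% with median centring. Low signals limit what can be read: 11 of the 62 genes lay below the array median in both groups, 2 of them called.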
